A study of Mus musculus with 12 samples.

Results

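The mouse genes described here are the collagens other than those of cartilage. They were chosen by symbol: every protein-coding gene whose Ensembl identifier maps to a symbol of the form Col, number, a, number, with the cartilage collagens Col2a1, Col9a1, Col9a2, Col9a3, Col11a1 and Col11a2 left out. This gave 38 of 44 collagen genes, among 51826 identifiers counted in the forelimb data and 55401 in the culture data. Col10a1, known from hypertrophic cartilage, was kept because the rule keeps it. RNA sequencing gave 12 libraries in 6 groups of 2. Forelimbs of embryos at E12.5 were either wild type (WT) or Prx-cKO, in which Impdh2, an enzyme of guanine nucleotide synthesis, was deleted in limb mesenchymal progenitors. Cultures of bone marrow cells came from WT mice or from LysM-cKO mice, in which Impdh2 was deleted in the myeloid lineage, and each genotype has samples titled R40D3 and R0D3. Per the labels' protocols the growth factor M-CSF came from supernatant of L929 cells, at the equivalent of 20 ng/ml over 3 days of culture. The cells were then reseeded and given the osteoclast-inducing cytokine RANKL at 40 ng/ml. The treatment label does not differ among the 8 culture samples, so R40D3 and R0D3 are used as names and no dose is assumed for either. Whether the WT animals carried a Cre or floxed alleles, the strain, and whether animals were pooled are not given in the sources used here. The labels also do not say whether replicates were separate animals or cultures, so p-values measure only the spread between these samples.

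Collagens are extracellular proteins whose chains wind around each other into a helix. The fibrillar collagens form the banded fibrils of connective tissue, with type I as the bulk of bone, tendon and skin and types III and V mixed into its fibrils. Type IV is the sheet-forming collagen of basement membranes, type VI forms beaded microfibrils around cells, and the FACIT collagens sit on fibril surfaces. In an embryonic limb these chains are made by mesenchyme, endothelium and surface ectoderm. In a marrow culture the usual sources of type I collagen are stromal cells and osteoblasts, while osteoclasts resorb a matrix made of it.

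Forelimb libraries held 28892215 to 69466572 counts and culture libraries 16009146 to 19221865. Levels are given as CPM, the counts of a gene scaled to a common library size after TMM normalisation. Impdh2 (chr9:108560286-108565584, + strand) stood at 169.7 and 199 CPM in the Prx-cKO forelimbs and 260.4 and 272 CPM in WT (log2 fold change -0.53 ± 0.16 (SE), adjusted p = 0.443 by edgeR). At R40D3 it stood at 7.72 and 8.38 CPM in LysM-cKO and 25.7 and 27.7 CPM in WT (log2 fold change -1.73 ± 0.15 (SE), adjusted p = 0.0386). At R0D3 it stood at 7.36 and 7.03 CPM in LysM-cKO and 22.3 and 28.2 CPM in WT (log2 fold change -1.81 ± 0.16 (SE), adjusted p = 0.0323). Each call was lost when any 1 of its 4 libraries was left out. The 2 LysM-cKO culture libraries numbered 2 stood apart in the collagens, and several collagen results that rest on them are given with and without them. Results for the other gene lists are given only with them. In the forelimb 1 WT library decided how many genes were called: edgeR called 0 genes with all 4 libraries and 603 without WT replicate 1. Ectodermal Krt5 and mesenchymal Prrx1 and Pdgfra were present in every forelimb library. In the cultures the lowest values of the macrophage genes Cd68 and Csf1r were 1629 and 1655 CPM. Lists of other cell types were low but not all at 0: the 9 surface ectoderm genes summed to at most 1.47 CPM, the 8 chondrogenic genes to between 1.52 and 2.82 CPM and the 7 osteoblast genes to between 5.18 and 12.2 CPM. Of these lists Krt5, Wnt7a, Acan, Hapln1, Matn4 and Bglap had 0 counts in all 8 libraries, while Matn1 and Sox9 had 9 to 33 and 5 to 25 counts and Runx2, the master regulator of osteoblasts, 69 to 124. The cartilage collagen Col2a1, which is on none of these lists, was at 13.3 to 50.3 CPM.

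The forelimb comparison asks whether loss of Impdh2 in limb mesenchymal progenitors changed the collagen genes. No collagen outside cartilage differed between the Prx-cKO and WT forelimbs beyond the spread of the libraries after adjustment. Of the 38 genes, 36 passed the filter on low counts and 0 of them were called by edgeR's quasi-likelihood test (adjusted p under 0.05), beside 0 of 19987 genes in all (0.0%). DESeq2 also called 0 of them, beside 1.48% of its genes. Only Col8a1 and Col6a3 had an unadjusted p under 0.05, both lower, so 2 members beside 4.61% of all genes lower and 10.5% in either direction. That count depended on single libraries. Leaving out 1 library moved Col8a1 between -0.99 and -0.61 and Col6a3 between -0.85 and -0.39 on the log2 scale. The summed level of the 38 genes was 2869.9 and 2917 CPM in Prx-cKO and 2752 and 3017 CPM in WT. Their median log2 fold change was -0.07, with 17 higher and 19 lower, beside a median of -0.03 over all genes tested. The Prx-cKO values lay wholly above WT for 8 members and wholly below for 14, beside 22.2% and 21.0% of all genes. The 6 cartilage collagens, left out by the rule, had a median of -1.59 with 6 of 6 lower, though edgeR called 0 of them. The difference between the 2 collagen sets was not tested.

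**Figure D1:**
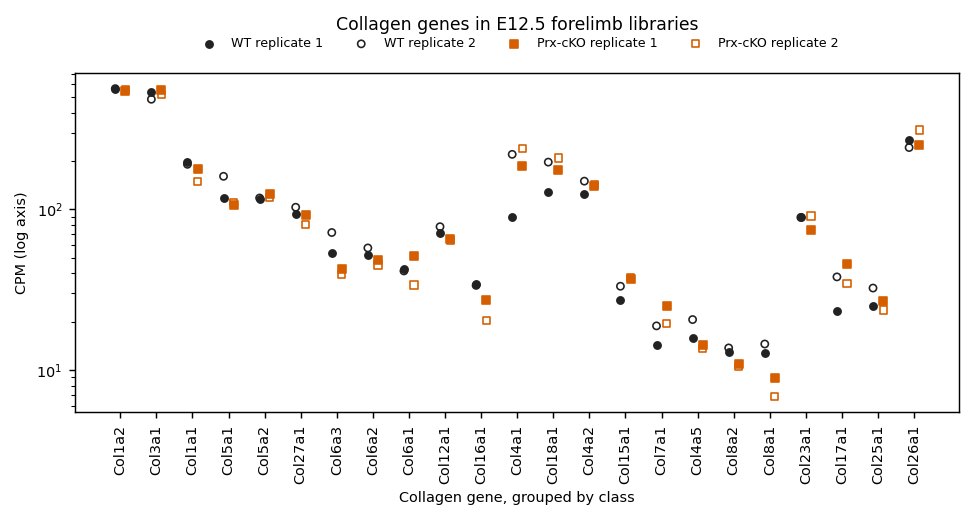
Level of each named member in the 4 forelimb libraries, in CPM on a log axis, with 1 point per library coloured by group. Most Prx-cKO and WT points lie close together, and Col4a1 shows 1 low WT library at 89.4 CPM.

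Among the fibrillar collagens, 4 were higher and 4 lower in Prx-cKO, with a median log2 fold change of 0.01. Col3a1, the type III chain, stood at 551 and 520.0 CPM in the Prx-cKO libraries and 536 and 485 CPM in WT. The groups overlapped, and the log2 fold change was 0.07 ± 0.15 (SE). Col1a2, one of the chains of type I collagen, was at 546 and 558 CPM against 563 and 564 CPM. Both Prx-cKO values were below both WT values, but the log2 fold change was only -0.03 ± 0.15 (SE). Its partner Col1a1 was at 177 and 149 CPM against 198 and 191 CPM (log2 fold change -0.25 ± 0.16 (SE), adjusted p = 0.612 by edgeR). Col5a1, whose product helps fibrils nucleate, was at 107 and 110.5 CPM against 117 and 161 CPM (log2 fold change -0.35 ± 0.20 (SE), adjusted p = 0.579). WT replicate 2 was far above the other WT library for this gene. Col5a2 was at 125 and 118 CPM against 116 and 118 CPM, nearly the same in all 4 libraries. Col27a1, a fibrillar chain best known from cartilage and tooth, was at 92.8 and 80.2 CPM against 93.5 and 103 CPM (log2 fold change -0.18 ± 0.16 (SE)), and Col24a1 and Col5a3 were at 6.75 CPM or less in every library. Summed over the 8 fibrillar genes, the level was 1606 and 1543 CPM in Prx-cKO and 1631 and 1628 CPM in WT.

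Of the basement membrane collagens, 6 were higher and 2 lower in Prx-cKO among the 8 tested, with a median log2 fold change of 0.27. Col4a1 and Col4a2 encode the type IV chains found in nearly all basement membranes and lie head to head on chromosome 8, with RefSeq start sites 21 bases apart. Their annotated 5′ ends overlap there, at chr8:11312805-11312826. Col4a1 was at 185 and 239 CPM in Prx-cKO and 89.4 and 220.0 CPM in WT. WT replicate 1 alone was low, so the groups overlapped, and the log2 fold change of 0.46 ± 0.43 (SE) moved to -0.09 without that library and to 1.26 without WT replicate 2. For Col4a2 that library was closer to the others, at 139 and 144 CPM against 125 and 149.9 CPM. Col18a1, the source of endostatin, was at 175 and 209 CPM against 129 and 197 CPM, again with WT replicate 1 lowest. Col15a1, its closest relative, was at 36.8 and 37.7 CPM against 27.3 and 33.2 CPM, higher in both Prx-cKO libraries (log2 fold change 0.30 ± 0.18 (SE), adjusted p = 0.602 by edgeR). Col7a1, the anchoring fibril collagen of skin, was also higher in both, at 25.1 and 19.5 CPM against 14.3 and 18.8 CPM (log2 fold change 0.42 ± 0.24 (SE), adjusted p = 0.593). Col4a5, a type IV chain of kidney and other specialised membranes, was lower in both, at 14.3 and 13.6 CPM against 15.9 and 20.6 CPM. Summed over the 9 basement membrane genes, the level was 579 and 666 CPM in Prx-cKO and 403 and 643 CPM in WT. The groups overlapped, with WT replicate 1 lowest. Of the endothelial markers 9 of 9 were higher in Prx-cKO without overlap, beside 22.2% of all genes. They had a median log2 fold change of 0.58, and edgeR called 0 of them. Their summed level was 262 and 257 CPM against 189 and 177 CPM, with WT replicate 2 lowest. Their part in the basement membrane values was not tested, and in bulk tissue a change in the number of cells of a type and a change in RNA per cell cannot be told apart.

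The type VI genes were lower for 4 of 6 members, with a median of -0.18. Col6a3, the longest type VI chain (chr1:90765923-90843971, - strand on GRCm38), was at 42.7 and 39.1 CPM in Prx-cKO and 53.8 and 71.8 CPM in WT. Both Prx-cKO libraries were below both WT libraries, by 1.54-fold in the fit (log2 fold change -0.62 ± 0.20 (SE), unadjusted p = 0.0247 and adjusted p = 0.452 by edgeR). Its partner chains had smaller differences. Col6a1 was at 51.2 and 33.8 CPM against 42.4 and 41.4 CPM. Col6a2 was at 48.6 and 45.0 CPM against 52.3 and 57.5 CPM. The sign for Col6a1 turned with library size alone, with no filter and with the replicate block, and its values overlapped between groups. Col6a5 was at 4.03 and 0.333 CPM against 6.05 and 7.69 CPM. Prx-cKO replicate 2 alone was close to 0, and the log2 fold change was -1.81 ± 0.93 (SE) with an adjusted p of 0.554.

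Among the FACIT collagens 4 of 6 were lower, with a median of -0.19. Col12a1, of tendon and fascia, was at 65.5 and 63.8 CPM against 70.9 and 78.0 CPM, with a log2 fold change of -0.20 ± 0.15 (SE). Col16a1, found with thin fibrils, was at 27.3 and 20.4 CPM against 34.2 and 33.6 CPM (log2 fold change -0.51 ± 0.21 (SE), adjusted p = 0.48 by edgeR). Col14a1 was at 5.18 and 4.09 CPM against 6.40 and 7.04 CPM. All 3 were lower in both Prx-cKO libraries, and 0 of them were called. The short-chain network collagens of type VIII, made by endothelium, cornea and mesenchyme, followed the same order. Col8a1 (chr16:57624258-57754737, - strand on GRCm38) was at 8.94 and 6.83 CPM in Prx-cKO and 12.8 and 14.5 CPM in WT, 1.75-fold lower in the fit, with no overlap (log2 fold change -0.80 ± 0.25 (SE), unadjusted p = 0.0223 and adjusted p = 0.445). Col8a2 was at 11.0 and 10.6 CPM against 12.9 and 13.7 CPM. Col10a1 had too few counts to be tested.

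Transmembrane collagens span the plasma membrane of the cell that makes them. Col23a1 was at 74.5 and 90.9 CPM against 89.3 and 89.1 CPM. Col25a1, known from brain and developing muscle, was at 26.9 and 23.6 CPM against 25.1 and 32.4 CPM. Col17a1, the hemidesmosome collagen of keratinocytes, was at 45.5 and 34.5 CPM against 23.3 and 38.0 CPM. All 3 overlapped between the groups. The surface ectoderm markers, from the tissue that makes Col17a1, had a median log2 fold change of 0.06. Col26a1 was at 253 and 311 CPM against 271 and 243 CPM, with the highest and the next to lowest value both in Prx-cKO. Per kilobase of exon, the mean levels over the 4 libraries were highest for Col3a1 at 53.3, Col1a2 at 44.9, Col26a1 at 33.0, Col1a1 at 27.2 and Col18a1 at 25.2 CPM per kilobase. The order depends on the length used: per kilobase of the longest transcript, Col1a2 was at 104, Col26a1 at 97.0, Col3a1 at 94.0, Col18a1 at 31.7 and Col1a1 at 30.1. The 15 members with a mean under 10 CPM in both groups had at most 7.83 CPM in any library, and 4 of the 38, Col10a1, Col4a3, Col4a4 and Col6a4, were below 1 CPM in every library.

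**Figure D2:**
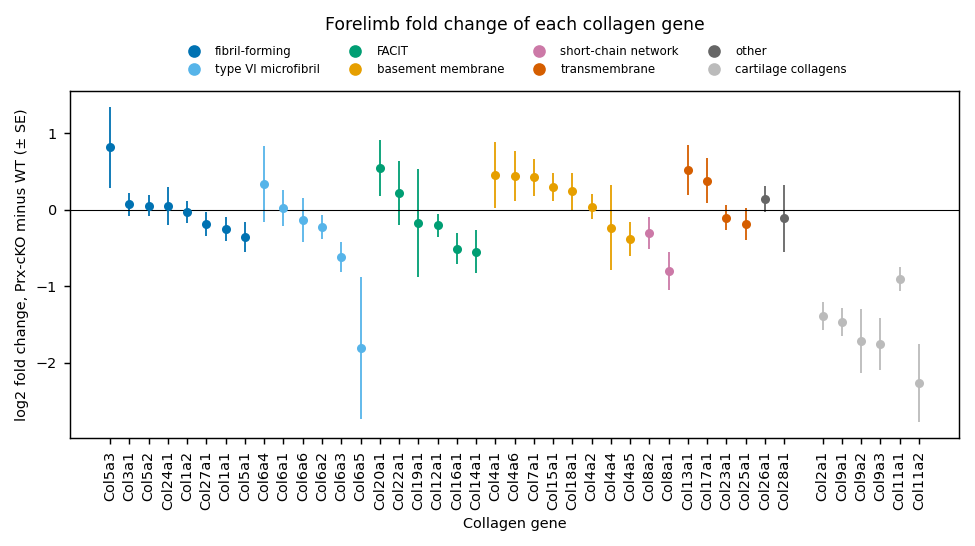
Log2 fold change of Prx-cKO against WT for the 36 tested members, coloured by role, with the 6 cartilage collagens beside them and error bars of 1 standard error. Several members lie away from 0 by more than their bars, among them Col8a1, Col6a3 and Col16a1 below 0 and Col15a1 above it. After adjustment 0 of 36 members were called.

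Collagen chains are hydroxylated, folded and trimmed by a shared set of enzymes. Of 26 collagen modification genes tested in the forelimb, 0 were called and 16 were lower (median -0.11). At an unadjusted p under 0.05 by edgeR 4 were lower, beside 4.61% of all genes. Creb3l2, a transcription factor of the secretory pathway, had 74.4 CPM on average in Prx-cKO against 128 CPM (log2 fold change -0.79 ± 0.20 (SE), adjusted p = 0.416). The prolyl hydroxylase subunit P4ha2 and the prolyl isomerase Fkbp14 had log2 fold changes of -0.64 and -0.64. Of 13 genes that trim or cross-link collagen 10 were lower and 0 called. The cross-linking enzymes Lox and Loxl1 had log2 fold changes of -0.60 and -0.52, while Pcolce, which speeds the removal of the procollagen C-terminal end, was at 0.58. Among 10 collagen receptors 6 were lower and 0 called. Itga11, an integrin subunit for fibrillar collagen, was at 4.36 CPM on average in Prx-cKO against 12.8 CPM (log2 fold change -1.57 ± 0.29 (SE), adjusted p = 0.353), and the receptor kinase Ddr2 had a log2 fold change of -0.46. Of 8 small leucine-rich proteoglycans, which bind fibrils, 6 were lower and 0 called. Their 3 smallest p belonged to Prelp, Fmod and Aspn, with log2 fold changes of -1.65, -0.81 and -2.04. Markers of other cell types also moved between the groups. The chondrogenic list had 7 of 8 genes lower without overlap, beside 21.0% of all genes. It summed to 117 and 92.5 CPM in Prx-cKO and 257 and 312 CPM in WT. The limb mesenchyme list summed to 1117 and 1207 CPM in Prx-cKO and 1487 and 1630.0 CPM in WT, the skeletal muscle list to 895 and 435 CPM against 321 and 329 CPM, and the macrophage list to 49.4 and 42.7 CPM against 26.7 and 27.8 CPM. Their part in the collagen values was not tested.

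In the marrow cultures type I collagen led. Col1a1 (chr11:94936224-94953042, + strand) had 97.9 CPM per kilobase of exon on average over the 8 libraries, with a range of 34.3 to 129, and Col1a2 had 36.7. The next were Col6a1 at 11.0, Col5a2 at 8.69, Col5a1 at 7.41, Col4a1 at 5.80 and Col3a1 at 5.47 CPM per kilobase. Per kilobase of the longest transcript Col1a1 and Col1a2 again led, at 108 and 85.2, followed by Col5a2 at 12.6, Col6a1 at 11.7 and Col3a1 at 9.66. Of the 38 genes 24 passed the filter on low counts, and 15 were below 1 CPM in every library. Those that did not pass were Col4a3, Col4a4, Col4a6, Col6a4, Col6a5, Col8a2, Col13a1, Col14a1, Col17a1, Col22a1, Col24a1, Col25a1, Col26a1 and Col28a1, of which 7 had at most 3 counts in any library. Col26a1, among the strongest members in the forelimb, had 0 counts in 7 of 8 culture libraries.

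Libraries of the same group differed in the collagens by replicate number, above all in LysM-cKO. The summed level of the 38 genes was 1858 CPM in replicate 1 and 1614 CPM in replicate 2 of WT R0D3, and 2258 and 2160 CPM in WT R40D3. In LysM-cKO it was 2064 CPM in replicate 1 and 726 CPM in replicate 2 at R0D3, and 1941 and 672 CPM at R40D3. The 2 LysM-cKO libraries numbered 2 were thus the lowest of the 8, and the other 6 lay between 1614 and 2258 CPM. In the fit with 1 replicate term for all groups edgeR called 4 of 24 members lower in replicate 2, beside 5.4% of all genes lower and 11.1% in either direction. They were Col18a1 at -0.84 ± 0.16 (SE) (adjusted p = 0.0153), Col3a1 at -1.09 ± 0.25 (SE) (adjusted p = 0.0299), Col8a1 at -0.92 and Col6a1 at -0.68 on the log2 scale, and the count ran from 0 to 5 when 1 library was left out. A fit with a separate replicate term for each genotype was chosen after seeing the data. It compares libraries with different numbers, deposited in separate tables, and not a condition of the study. In LysM-cKO edgeR called 14 of the 24 members lower in replicate 2, beside 6.45% of all genes lower, and 1 higher, beside 6.96% higher. In WT it called 0 of 24, beside 2.04% in either direction, with 6 members lower at an unadjusted p under 0.05, beside 9.26% of all genes. The change from replicate 1 to replicate 2 differed between the genotypes for 10 members, all with a larger drop in LysM-cKO, beside 1.03% of all genes in that direction and 1.3% in either. Each genotype's change rests on 2 libraries of each number, from the 2 titles, and the fit counts them as separate. In LysM-cKO same-numbered libraries of the titles deviated together (r = 0.609 across genes). Whether they came from the same marrow preparation is not given in the sources used here. If they did, the standard errors and p-values measure only the spread within a preparation.

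**Figure D3:**
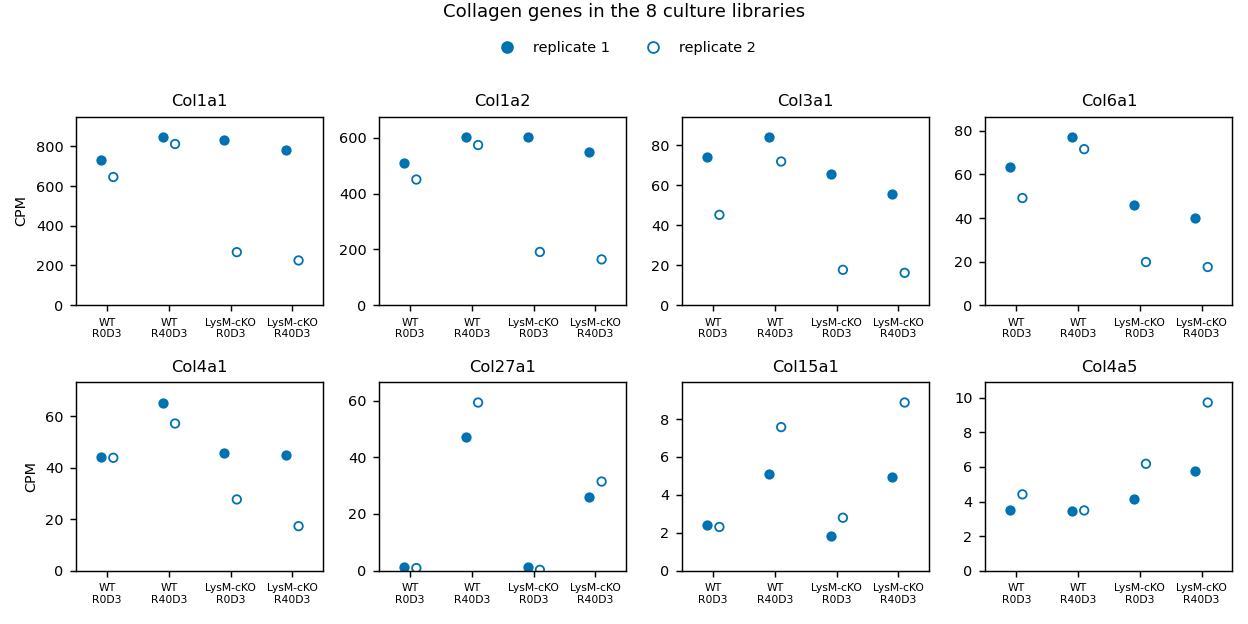
Level of 8 members in the 8 culture libraries, in CPM on linear axes that start at 0, by genotype and title, with filled points for replicate 1 and open points for replicate 2. The LysM-cKO libraries numbered 2 are lowest for Col1a1, at 267 and 225 CPM, and every Col27a1 value is higher at R40D3 than at R0D3.

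Of the members called lower in LysM-cKO, the chains of types I and III fell the most. Col1a1 was at 834 and 267 CPM in replicates 1 and 2 of LysM-cKO R0D3 and at 780.5 and 225 CPM in those of LysM-cKO R40D3. In WT it was at 730.4 and 645 CPM at R0D3 and 847 and 812 CPM at R40D3. Replicate 2 therefore held 32.0% and 28.8% of the replicate 1 level in LysM-cKO, and 88.4% and 95.9% in WT. The log2 fold change of replicate 2 against 1 was -1.72 ± 0.08 (SE) in LysM-cKO and -0.12 ± 0.08 (SE) in WT, and the difference of -1.60 ± 0.11 (SE) passed the test (adjusted p = 0.000597 by edgeR). Col1a2 was at 603 and 191 CPM in LysM-cKO R0D3 and 549.7 and 164 CPM in LysM-cKO R40D3, against 511 and 451 CPM and 602 and 574 CPM in the matching WT groups (difference -1.58 ± 0.10 (SE), adjusted p = 0.000597). The values of both type I chains in the LysM-cKO libraries numbered 2 lay below all other libraries. Col3a1 was at 65.5 and 17.6 CPM in LysM-cKO R0D3, 55.4 and 16.1 CPM in LysM-cKO R40D3, 74.2 and 45.1 CPM in WT R0D3 and 84.0 and 71.8 CPM in WT R40D3. Its replicate 2 values were the lower ones in all 4 groups, and the drop was larger in LysM-cKO (difference -1.37 ± 0.16 (SE), adjusted p = 0.00501). Col5a1 and Col5a2, the type V chains, fell by 1.40 and 1.47 on the log2 scale in LysM-cKO, with differences from WT of -1.39 (adjusted p = 0.000631) and -1.40 (adjusted p = 0.000687).

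Chains of type VI, VIII and IV and some FACIT collagens were also called lower in the same libraries. Col6a1 was at 46.0 and 19.8 CPM in LysM-cKO R0D3 and 40.0 and 17.5 CPM in LysM-cKO R40D3, against 63.6 and 49.2 CPM and 77.2 and 71.6 CPM in WT (difference -0.97 ± 0.13 (SE), adjusted p = 0.00739). Col6a3 had a difference of -0.90 ± 0.11 (SE) (adjusted p = 0.00515), while Col6a2, called lower in LysM-cKO at -1.17, did not pass the test of the difference (-0.95 ± 0.20 (SE), adjusted p = 0.0634). All 3 type VI chains had their 2 lowest values in the LysM-cKO libraries numbered 2. Col12a1 differed by -1.32 ± 0.11 (SE) (adjusted p = 0.000687) and Col8a1 by -1.34 ± 0.14 (SE) (adjusted p = 0.00287). Col16a1 fell by 1.47 on the log2 scale in LysM-cKO, but its difference from WT had an adjusted p of 0.0852. For the type IV chains the difference was -1.06 ± 0.17 (SE) for Col4a2 (adjusted p = 0.0206) and -0.93 ± 0.19 (SE) for Col4a1 (adjusted p = 0.0562), so that of this pair only Col4a2 passed.

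Other members had another pattern. Col23a1, the only transmembrane collagen tested, was at -0.11 in LysM-cKO, and the FACIT genes Col19a1 and Col20a1 were at 0.29 and 0.03, with 0 of the 3 called. In WT Col23a1 was at -1.50 ± 0.50 (SE) (adjusted p = 0.176 by edgeR), from means of 0.371 CPM in replicate 2 and 1.06 CPM in replicate 1. Col19a1 and Col20a1 were at -0.08 and 0.29 in WT. Col18a1 was lower in replicate 2 in both genotypes, at 45.2 and 19.6 CPM in LysM-cKO R0D3 and 38.7 and 16.5 CPM in WT R0D3, and the difference between genotypes was 0.19 ± 0.30 (SE) (adjusted p = 0.896). Col4a5 went the other way, with 4.14 and 6.18 CPM in LysM-cKO R0D3 and 5.76 and 9.73 CPM in LysM-cKO R40D3. It was called higher in replicate 2 of LysM-cKO (log2 fold change 0.68 ± 0.18 (SE), adjusted p = 0.041), but the difference from WT was 0.50 ± 0.29 (SE) (adjusted p = 0.627). Col15a1 was also higher in replicate 2 in both LysM-cKO groups, at 0.77 (adjusted p = 0.0564), short of the threshold. Col27a1, the fibrillar chain with its own pattern in these cultures, was at 0.11 in LysM-cKO (adjusted p = 0.808). That value joins a lower replicate 2 at R0D3, from few counts, with a higher one at R40D3, at 25.8 and 31.4 CPM. Over the members with at least 20 counts in both libraries, the median level of replicate 2 was 43.0% of replicate 1 in LysM-cKO R0D3 (17 members, 26.9% to 152%) and 39.5% in LysM-cKO R40D3 (19 members, 25.5% to 180%). In WT it was 88.3% at R0D3 (18 members, 42.7% to 126%) and 95.4% at R40D3 (19 members, 65.7% to 173%).

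**Figure D4:**
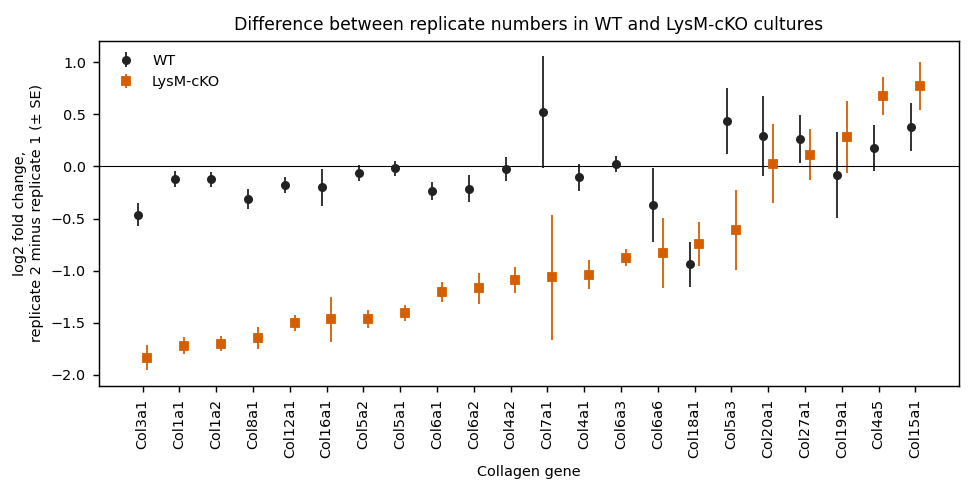
Log2 fold change of replicate 2 against replicate 1 for the 22 named members in WT and in LysM-cKO cultures, with error bars of 1 standard error. For Col1a1 the value is -0.12 in WT and -1.72 in LysM-cKO, while Col18a1 is below 0 in both.

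Markers of stromal fibroblasts, fixed as a list with earlier results of these data known, moved with the collagens. Of 15 listed genes 13 were tested, and edgeR called 11 lower in replicate 2 of LysM-cKO (median log2 fold change -1.30), beside 6.45% of all genes lower, and 1 lower in WT, with the difference called for 7. Their summed level was 332 and 145 CPM in LysM-cKO R0D3 and 296 and 105 CPM in LysM-cKO R40D3, against 336 and 322 CPM and 346 and 321 CPM in WT. Postn, the matrix protein periostin, had a difference of -1.75 ± 0.14 (SE) (adjusted p = 0.000631) and Cxcl12, a chemokine of marrow stroma, of -1.43 ± 0.24 (SE) (adjusted p = 0.0233). The fibroblast genes Dcn, Lum and Mfap5 were at or near 0, with at most 1.22 CPM in any library, while the macrophage list summed to between 7078 and 8610 CPM. Of its 7 genes edgeR called Mrc1 and Csf1r lower in replicate 2 of LysM-cKO, at -0.60 (adjusted p = 0.00356) and -0.40 (adjusted p = 0.021), and 0 in WT. Of 4 osteoblast genes tested it called Ibsp lower in LysM-cKO, at -2.79, and 0 in WT. Ibsp was near the floor, with 1 to 27 counts a library and LysM-cKO means of 0.152 CPM in replicate 2 and 1.09 CPM in replicate 1. The others, Runx2, Alpl and Sp7, were at -0.24, -0.63 and -0.10 in LysM-cKO. Of 4 endothelial genes tested, edgeR called 3 lower in replicate 2 of LysM-cKO and 1 lower in WT, and of 10 osteoclast genes it called 5 higher in LysM-cKO, beside 6.96% of all genes higher, and 1 higher in WT. These osteoclast genes were Oscar, Car2, Calcr, Ocstamp and Dcstamp in LysM-cKO and Oscar in WT. Their levels were near 0 at R0D3, so each call rests mostly on the R40D3 libraries, 1 of each number. In LysM-cKO Oscar averaged 134 CPM (SD 190) in replicate 2 and 59.5 CPM (SD 84.1) in replicate 1, and the values overlapped. In WT 2.04% of all genes were called in either direction. The part of these cell types in the collagen values was not tested. The genes that process collagen moved in the same libraries. In replicate 2 of LysM-cKO edgeR called 8 of 25 modification genes lower and 0 higher, 7 of 11 trimming and cross-linking genes lower, 4 of 9 receptors lower and 1 higher, and 3 of 4 small leucine-rich proteoglycans lower, beside the same 6.45% of all genes lower and 6.96% higher. In WT it called 0 genes of these lists. The collagen chaperone Serpinh1 had a mean of 64.7 CPM in replicate 2 against 132 CPM in replicate 1 of LysM-cKO, and its difference from WT was -1.15 ± 0.11 (SE) (adjusted p = 0.00159). The cross-linking enzyme Lox differed by -1.34 ± 0.10 (SE) (adjusted p = 0.000631), the matrix protein Sparc by -1.50 ± 0.10 (SE) (adjusted p = 0.000597) and the proteoglycan Bgn by -1.22 ± 0.10 (SE) (adjusted p = 0.000633). The receptor that was higher is Lair1, an inhibitory collagen receptor of leukocytes, at 0.76 in LysM-cKO.

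The comparison of R40D3 with R0D3 asks what differed between the culture titles within a genotype. Col27a1 rose 51.7-fold in WT and 40.0-fold in LysM-cKO, and Col15a1, a basement membrane collagen, rose 2.67-fold and 2.95-fold. In WT edgeR called these 2 of 24 members higher and 0 lower, beside 16.9% of all genes in either direction and 11.4% higher. In LysM-cKO it called the same 2, beside 10.1% in either direction and 6.99% higher. The 10 osteoclast markers of a list, among them Acp5 and Ctsk, were all called higher in both genotypes. Their median rise on the log2 scale was 9.72 for WT and 8.97 for LysM-cKO. Their summed level at R40D3 was 12989.5 and 24407 CPM in LysM-cKO and 25954 and 38238 CPM in WT, and it was between 313 and 455 CPM in the 4 R0D3 libraries.

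Col27a1 (chr4:63214004-63334991, + strand) was at 1.17 and 0.871 CPM in WT R0D3, from 20 and 14 counts, and at 47.2 and 59.3 CPM in WT R40D3, from 902 and 971 counts. In LysM-cKO it was at 1.15 and 0.243 CPM at R0D3, from 20 and 4 counts, and at 25.8 and 31.4 CPM at R40D3, from 488 and 510 counts. Every R40D3 library was above every R0D3 library, and both WT R40D3 values were above both LysM-cKO R40D3 values. The log2 fold change was 5.69 ± 0.34 (SE) in WT (adjusted p = 0.000196 by edgeR) and 5.32 ± 0.37 (SE) in LysM-cKO (adjusted p = 0.000499). It was called in both genotypes under all 12 alternatives run. The size in LysM-cKO depended on single R0D3 libraries, with a log2 fold change of 4.63 without replicate 2 and 6.83 without replicate 1, while in WT it ran from 5.48 to 5.92 when 1 library was left out. The difference between genotypes was -0.37 ± 0.67 (SE) (adjusted p = 1), and the interaction was called for 0 genes (0.0%), with an unadjusted p under 0.05 for 248 genes, while DESeq2 called 0. Unlike type I collagen, Col27a1 was not lower in replicate 2 at R40D3 in either genotype. At R0D3 its replicate 2 value was the lower one in both genotypes, from at most 20 counts.

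Col15a1 (chr4:47208161-47313167, + strand) was at 2.39 and 2.30 CPM in WT R0D3 and 5.07 and 7.57 CPM in WT R40D3, and at 1.84 and 2.79 CPM and 4.92 and 8.87 CPM in the LysM-cKO groups. All 4 R40D3 values were above all 4 R0D3 values (log2 fold change 1.42 ± 0.39 (SE) in WT, adjusted p = 0.045, and 1.56 ± 0.38 (SE) in LysM-cKO, adjusted p = 0.0442). This call was close to the threshold: over the alternatives the adjusted p ran from 0.00374 to 0.276 in WT, the highest without WT R40D3 replicate 2, and from 0.00304 to 0.217 in LysM-cKO, the highest without both libraries numbered 2. Other members did not pass. With the replicate number as a block, edgeR called 5 members in WT, beside 28.3% of all genes, adding Col5a3 and Col6a3 as higher and Col18a1 as lower, with block-adjusted p of 0.0438, 0.027 and 0.0277. Their values without the block were 1.29 ± 0.43 (SE) (adjusted p = 0.0838), 0.82 ± 0.32 (SE) (adjusted p = 0.131) and -0.85 ± 0.49 (SE) (adjusted p = 0.295). The value for Col18a1 moved to -0.11 without WT R0D3 replicate 1 and to -1.34 without WT R0D3 replicate 2, and that for Col5a3 to 0.81 and 1.62 without WT R40D3 replicate 2 and 1. In LysM-cKO the block added Col6a6 as lower (block-adjusted p = 0.0488), for 3 members beside 21.3% of all genes. Col1a1 was at 0.27 ± 0.62 (SE) on the log2 scale for WT and -0.13 ± 0.62 (SE) for LysM-cKO, neither of which was called. The remaining tested members, Col6a6, Col7a1, Col10a1, Col19a1, Col20a1 and Col23a1, had at most 2.82 CPM in any library.

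The 250 bases before the RefSeq start site are given for the 2 called genes, and for contrast for Col3a1, which followed type I collagen. They were taken from RefSeq and are written 5′ to 3′ on GRCm38.p6. They lie at chr4:63215162-63215411 for Col27a1, chr4:47207762-47208011 for Col15a1 and chr1:45311288-45311537 for Col3a1, all on the + strand and overlapping no exon of the annotation. Capitals mark matches, on either strand, to GGAAA, the core letters bound by NFAT factors such as the osteoclast regulator Nfatc1, and to the TATA box letters TATAAA. The other motifs searched, the AP-1 letters TGANTCA and the CCAAT box letters CCAAT, had no match in these windows.
Col27a1: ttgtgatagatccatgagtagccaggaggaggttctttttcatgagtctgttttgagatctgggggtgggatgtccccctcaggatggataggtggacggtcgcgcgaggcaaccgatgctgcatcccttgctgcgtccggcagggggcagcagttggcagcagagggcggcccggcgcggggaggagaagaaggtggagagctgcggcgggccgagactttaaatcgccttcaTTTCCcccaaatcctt
Col15a1: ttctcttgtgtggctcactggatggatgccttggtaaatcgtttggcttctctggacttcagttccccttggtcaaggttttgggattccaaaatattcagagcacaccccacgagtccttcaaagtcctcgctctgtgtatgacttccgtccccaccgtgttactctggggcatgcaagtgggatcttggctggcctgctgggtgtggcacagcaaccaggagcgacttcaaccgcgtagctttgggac
Col3a1: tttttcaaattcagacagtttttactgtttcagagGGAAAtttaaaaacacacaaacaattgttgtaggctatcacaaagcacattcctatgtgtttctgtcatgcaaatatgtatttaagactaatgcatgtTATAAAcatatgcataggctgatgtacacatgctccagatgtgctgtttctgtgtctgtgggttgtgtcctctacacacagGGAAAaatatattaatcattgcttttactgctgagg
Col27a1 has 1 match, TTTCC, which reads GGAAA on the other strand. Col15a1 has none, and Col3a1 has 2 matches to GGAAA and 1 to TATAAA. The GC content was 59.6% for Col27a1, 53.6% for Col15a1 and 35.2% for Col3a1. GGAAA was in 55.6% of 32851 promoter windows of the same source and in 48.4% of the 31 member genes with a window, so the letters are common. TATAAA was in 12.4% and 12.9%, CCAAT in 33.8% and 35.5%, and TGANTCA in 6.75% and 3.23%. A match is a description and not a site. The RefSeq start of Col27a1 lies 1408 bases downstream of the GENCODE gene start, so its window lies inside the annotated gene and not upstream of it. That of Col15a1 lies 149 bases upstream of the GENCODE gene start.

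The comparison of LysM-cKO with WT cultures asks what deletion of Impdh2 in the myeloid lineage changed. No collagen outside cartilage was called at either title. At R40D3 edgeR called 0 of 24 members, beside 2 of 14030 genes (0.0143%), or 0 members beside 0.214% of genes with the replicate block, with 1 member higher and 5 lower at an unadjusted p under 0.05, beside 4.0% and 3.47% of all genes. That count of 6 rested on single LysM-cKO libraries, and it changed when either of them was left out. The median was -0.72 with 18 members lower, and 14 were lower without overlap, beside 18.9% of all genes. Col27a1 had a log2 fold change of -0.90 ± 0.23 (SE) (unadjusted p = 0.0052, adjusted p = 0.648), or 1.86-fold lower. Col6a3 was at -1.08, Col6a1 at -1.37, Col6a2 at -1.20 and Col4a1 at -0.98, while Col4a5 was at 1.15, all with an adjusted p of 0.648. With the replicate number as a block the adjusted p of these 6 genes ran from 0.0678 to 0.122. These values rest in part on the libraries that stood apart. Without both LysM-cKO libraries numbered 2, where the single LysM-cKO library of a title is assumed to vary like the other groups, Col27a1 was at -1.06, Col6a3 at -0.72, Col6a1 at -0.91, Col6a2 at -0.82, Col4a1 at -0.47 and Col4a5 at 0.72, with adjusted p between 0.264 and 0.333. Without LysM-cKO replicate 2 the member median at R40D3 was -0.17, and without LysM-cKO replicate 1 it was -1.61. At R0D3 edgeR called 0 of 24 members, beside 0.0143% of all genes, and 0 had an unadjusted p under 0.05, beside 4.42%. This count also depended on single libraries. The member median at R0D3 was -1.07 without LysM-cKO R0D3 replicate 1 and 0.067 without LysM-cKO R0D3 replicate 2. Of the 24, 19 were lower (median -0.29). There 5 members were lower without overlap, beside 14.8% of all genes.

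Genes that act on collagen were also compared between the titles. In WT edgeR called 3 of 25 modification genes, beside 16.9% of all genes, or 8 with the replicate block, beside 28.3%. The 3 were higher, namely Creb3l2 at 1.20, the prolyl hydroxylase P3h2 at 2.89 and the vesicle coat gene Sec24d at 0.50 on the log2 scale. In LysM-cKO it called Creb3l2 and P3h2 higher, at 0.91 and 3.82, and P4ha2 lower, at -0.98, again 3 of 25, beside 10.1% of all genes. Of the 9 receptors tested 2 were called in each genotype. Itga2, the integrin subunit that binds type I collagen, rose from 0.295 to 73.5 CPM in WT (log2 fold change 7.90 ± 0.43 (SE), adjusted p = 0.000161) and by 7.10 in LysM-cKO (adjusted p = 0.000306). Lair1 fell by 1.40 and 1.49 on the log2 scale. No trimming or cross-linking gene and no small leucine-rich proteoglycan was called between titles in either genotype, and no gene of these lists was called between genotypes at R40D3.

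The chains of 1 molecule, and Col3a1 of type III with Col1a1 of type I, were compared within each library, as ratios of levels per kilobase of exon. Col1a1 to Col1a2 was 2.67 at the median of the 8 culture libraries, with a range of 2.60 to 2.71, although the level of Col1a1 itself ranged widely. In the 4 forelimb libraries it was 0.627 (0.505 to 0.665). Col3a1 to Col1a1 was 0.0503 in the cultures (0.0442 to 0.0679) and 1.95 in the forelimb (1.70 to 2.34). Col3a1 thus stood above Col1a1 in the limb and far below it in the cultures. Col6a1 to Col6a2 was 2.90 (2.25 to 3.56) and 1.49 (1.37 to 2.0), Col5a1 to Col5a2 was 0.832 (0.764 to 1.02) and 1.10 (0.968 to 1.54), and Col4a1 to Col4a2 was 1.43 (1.40 to 1.66) and 1.24 (0.635 to 1.48). The value of 0.635 was that of WT replicate 1. The forelimb and culture tables were counted against different sets of identifiers and the difference between them was not tested. The ratios depend on the gene length used. With the longest transcript in place of all exons, Col1a1 to Col1a2 was 1.27 in the cultures and 0.299 in the forelimb, and Col6a1 to Col6a2 was 1.83 and 0.936, the last now below 1. Col3a1 to Col1a1 was 0.0801 and 3.10, on the same sides of 1 as before.

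**Figure D5:**
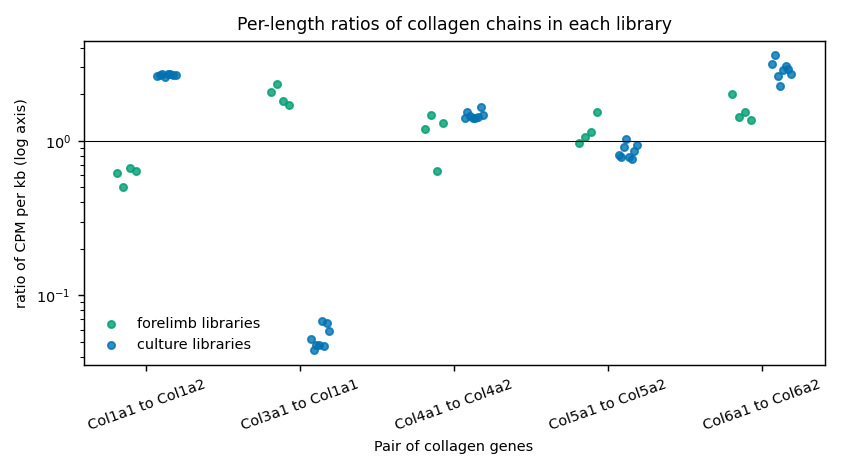
Ratios of chain levels per kilobase of exon within each library, on a log axis, for the 8 culture and 4 forelimb libraries. Col1a1 to Col1a2 lies between 2.60 and 2.71 in the cultures and between 0.505 and 0.665 in the forelimb.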

How the data were processed

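The authors deposited whole-number counts by Ensembl identifier, in 1 forelimb table of 4 libraries and 2 culture tables, each with the 4 libraries of a replicate number. Per the labels' protocols, TRIzol was used for extraction and an mRNA kit for the libraries. The submitters' processing notes list FastQC 0.11.2, Trimmomatic 0.36, HISAT2 2.1.0, DESeq2 1.12.4 and GRCm38. How reads were counted, against which annotation and with which strand setting, is not given in the sources used here, so reads of overlapping genes could be divided either way. At most 5.65% of a member's exonic bases, for Col4a3, are shared with another gene. Symbols, positions and exon lengths came from GENCODE M21 on GRCm38, which matched 99.6% of forelimb and 99.5% of culture identifiers, and promoter windows from RefSeq.

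Forelimb libraries held 28892215 to 69466572 counts and culture libraries 16009146 to 19221865. Counts were tested in R 4.3.3 with the quasi-likelihood test of edgeR 4.0.16 (legacy = FALSE, filterByExpr by group, TMM, two-sided, Benjamini-Hochberg over 19987 forelimb or 14030 culture genes, called when the adjusted p was under 0.05). The fit of the cultures holds all 8 libraries, which share their estimate of the spread, and that of the forelimb its 4. A standard error was taken as the size of the fold change (log2) divided by the square root of the F statistic. The scripts were tested on simulated data. Alternatives were DESeq2 1.42.0, other scaling, no filter, the legacy fit, the replicate block, only the libraries compared, and leaving out libraries. A separate replicate term per genotype, leaving out both LysM-cKO libraries numbered 2, and levels per kilobase of the longest transcript were chosen after seeing the data.

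Same-numbered culture libraries deviated together in all 6 pairs of groups (r from 0.343 to 0.609 across genes), so the number may pair them. The main genotype and title contrasts did not use the number, and their p-values leave such pairing out. It entered the replicate contrasts and the replicate block, which is given as an alternative. In the forelimb the labels share only a number.

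The members and lists were chosen with earlier results of these data known. Text names Impdh2, forelimb members whose higher group averaged 10 CPM or more or whose unadjusted p was under 0.05, culture members called or averaging 1 CPM or more in some group, and the 3 smallest p of each pathway list. Other members are named to account for all of them, and stromal markers after their values were seen.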

Additional observations from a re-analysis of the deposited data

Results flagged for a closer look

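The change from replicate 1 to replicate 2 differed between LysM-cKO and WT cultures for 10 collagens, by edgeR's test of the difference itself with adjusted p under 0.05. The log2 difference, LysM-cKO minus WT, was -1.60 for Col1a1, -1.58 for Col1a2, -1.37 for Col3a1, -1.39 for Col5a1 and -1.40 for Col5a2 among the fibrillar chains. It was -0.97 for Col6a1 and -0.90 for Col6a3 of type VI, -1.32 for Col12a1, -1.34 for Col8a1 and -1.06 for Col4a2. The test was chosen after seeing the data. Each genotype has 2 libraries of each number, which the test counts as separate although they may share a source. The number also marks the table in which a library was deposited, and what else it marks is not given in the sources used here.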

How the results depend on the processing

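In the forelimb 0 members were called under every alternative run, while the count over all genes ran from 0 to 603 when 1 library was left out. The member median was -0.17 with library size alone and ran from -0.10 to 0.0075 when 1 library was left out. With library size alone the sign turned for Col6a1 (-0.072), Col5a2 (-0.043), Col3a1 (-0.026) and Col4a2 (-0.057), and for Col6a1 also with no filter (-0.020) and with the replicate block (-0.011). Leaving out 1 library moved Col6a1 from -0.30 to 0.29, Col18a1 from -0.073 to 0.59, Col23a1 from -0.26 to 0.038, Col25a1 from -0.40 to 0.017, Col26a1 from -0.017 to 0.29, Col4a1 from -0.087 to 1.26 and Col4a2 from -0.12 to 0.19. The forelimb numbers correlated with r = 0.261, and the replicate block gave 0 calls there.

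In the cultures the number of members called between R40D3 and R0D3 in WT was 1 with no filter, 5 with the replicate block, 6 with only the 4 libraries compared and 6 without both LysM-cKO libraries numbered 2, and 1 whenever 1 library was left out. In LysM-cKO it was 1 with no filter, 1 with only the 4 libraries compared, 1 without both libraries numbered 2, and 1 to 2 when 1 library was left out. The replicate contrast gave 1 call with no filter and 0 to 5 when 1 library was left out, and DESeq2 turned Col27a1 in it to -0.32. The genotype median lay between -1.61 and -0.17 at R40D3 when 1 library was left out, and between -1.07 and 0.067 at R0D3. The cause of these changes was not tested, beyond fewer samples or genes where a setting removes them. The replicate block changed no other call of a member. With the length of the longest transcript the chain ratios in cultures and forelimb were 1.27 and 0.299 for Col1a1 to Col1a2, 0.0801 and 3.10 for Col3a1 to Col1a1, 0.581 and 0.766 for Col5a1 to Col5a2 and 1.83 and 0.936 for Col6a1 to Col6a2, and 1.57 in cultures for Col4a1 to Col4a2. With 2 libraries a group, members under 1 CPM rest on few counts and differences in them were not detectable at this depth.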

Other observations

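Col4a6, a type IV chain whose gene lies beside Col4a5, was too low to be tested in the cultures. It had 1 and 3 counts in replicates 1 and 2 of LysM-cKO R0D3, 1 and 10 counts in those of LysM-cKO R40D3, and 0 counts in all 4 WT libraries. Col4a5 had its highest level in the same library as Col4a6, at 9.73 CPM. Both genes were chosen after their values were seen, and the difference in Col4a6 was not tested.

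The cartilage collagen Col2a1, left out of the set, was also counted in the marrow cultures, at 13.3 to 50.3 CPM with a median of 37.9 CPM. Of the 8 chondrogenic markers there, Acan, Hapln1 and Matn4 had 0 counts in all 8 libraries, Matn1 had 9 to 33 and Sox9 5 to 25. The change of Col2a1 from replicate 1 to replicate 2 was -1.60 on the log2 scale in LysM-cKO and -0.43 in WT, and the difference of -1.17 passed edgeR's test with an adjusted p of 0.0103. The cartilage collagen Col11a1 was called lower in replicate 2 in both genotypes, at -2.71 in LysM-cKO (adjusted p = 0.000286) and -1.33 in WT (adjusted p = 0.0179), and the difference of -1.38 did not pass the test (adjusted p = 0.143). Both genes were chosen after their values were seen.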
